A study of Homo sapiens with 24 samples.

Results

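The genes described here were higher after loss of β-CATENIN in both HCT116 and SW480 colorectal carcinoma cells. A gene was taken when, in each of these lines, every knock-out (KO) library lay above every wild-type (WT) library, the KO mean plus 1 was at least 2 times the WT mean plus 1, and the KO mean was at least 50 normalised read counts. A normalised read count is the number of reads assigned to a gene, divided by a size factor that puts the 24 libraries on 1 scale. Of the 58051 genes in the data, 189 met the rule. The rule was met in HCT116 by 414 genes, which was 3.4% of the genes with a KO mean of at least 50 there, and in SW480 by 1341 genes, or 10.6%. The 189 genes were 1.68% of the 11259 genes with a KO mean of at least 50 in both lines, 45.7% of the genes found in HCT116 and 14.1% of those found in SW480. The members were thus chosen by their levels in the HCT116 and SW480 libraries, and all values for HCT116 and SW480 are given as a description without a test. HT29, the remaining line, took no part in the choice.

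RNA-seq was available for clones of HCT116, SW480 and HT29, which are established lines from human colorectal tumours. KO clones carried a CRISPR/Cas9 deletion of exon 7 on both *CTNNB1* alleles. The clones kept as WT had gone through the same procedure but were not edited at *CTNNB1*. WT thus means unedited. The paper states that HT29 and SW480 have inactivating *APC* mutations, and that HCT116 has a gain-of-function mutation of *CTNNB1* itself. HCT116 was represented by WT 4 and 6 and KO 44 and 47, SW480 by WT 4 and 5 and KO 17 and 21, and HT29 by WT 11 and 40 and KO 28 and 38. Every clone was grown from a single cell, received no further treatment and gave libraries in 2 rounds, A and B, so that each group of 4 libraries held 2 clones. A difference between the genotypes can therefore not be told apart from a difference between these particular clones where the clones of a group disagree. In bulk RNA, fewer cells with a transcript and less transcript per cell cannot be told apart either.

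Libraries held 22297049 to 29068378 reads assigned to genes. *CTNNB1* was lower in KO in each line, with means of 11918 ± 1000 and 218 ± 28.9 normalised read counts in WT and KO HCT116 (SD, n = 4 libraries), 46967 ± 4376 and 1024 ± 229 in SW480, and 6021 ± 99.3 and 299.8 ± 34.1 in HT29. The 5 epithelial markers were present in every group, with *CDH1* at 20.2 to 85.9 in SW480. Of 7 colonic markers, between 5 and 6 stayed under 10 in every library of each HCT116 and SW480 group. The summed colonic markers were at 603 to 809 in the WT libraries of HCT116 against 429 to 484 in KO, at 870 to 1387 in the WT libraries of SW480 against 72.5 to 192 in KO, and at 9301 to 16932 in those of HT29 against 45110 to 61000 in KO. In SW480, the summed 5 leukocyte markers were at 52.4 to 69.7 in WT against 173 to 254 in KO, most of it *CD14*, while *PTPRC* was at 2.80 or less. The summed 3 endothelial markers were at 10.6 to 27.4 in WT and 118 to 234 in KO, most of it *VWF*, while *CDH5* was at 1.88 or less. The part of these shifts in the levels of the 189 genes was not tested.

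β-CATENIN has separate roles at the membrane and in the nucleus. At adherens junctions it ties cadherins to the actin cytoskeleton, and in the nucleus it is the co-activator through which WNT signals reach target genes bound by TCF/LEF factors. In the intestine this pathway maintains stem and progenitor cells, and mutations in *APC* or *CTNNB1* keep it active in most colorectal carcinomas.

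The 189 genes spanned a wide range of sizes. The fold, taken as the KO mean plus 1 over the WT mean plus 1, had a median of 3.26 in HCT116 and 3.51 in SW480, and reached 126.8 for *WNT7A* in HCT116 and 256.9 for *ABLIM3* in SW480. The median log2 ratio of all genes that could have met the rule was −0.01 in HCT116 and 0.02 in SW480. At least 4-fold differences were found for 62 genes in HCT116 and 85 genes in SW480, and for 41 genes in both. At least 8-fold differences were found for 23 and 57 genes, and for 14 in both. In 38 genes the fold stayed under 3 in both lines. The median member had a mean of 188 in WT against 564 in KO for HCT116, and of 126 against 668 for SW480.

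**Figure D1:**
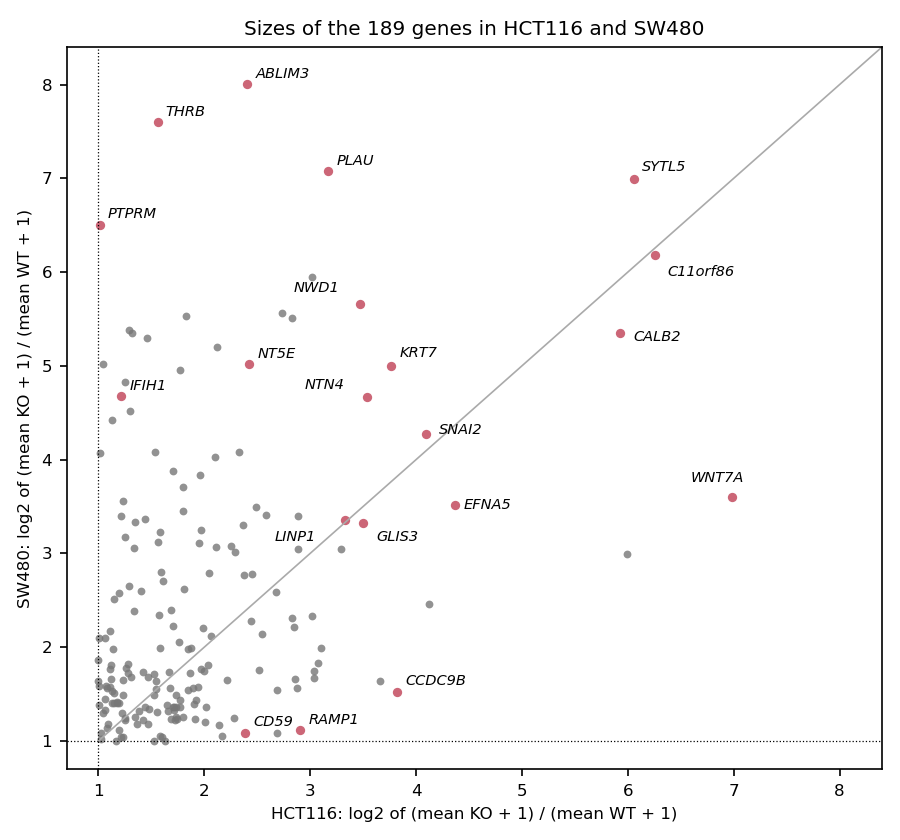
The log2 ratio of KO to WT means, each plus 1, in HCT116 (horizontal axis) and SW480 (vertical axis) for the 189 genes, 1 point a gene. Dotted lines mark the smallest ratio the rule allowed and the diagonal marks equal ratios, and 111 genes lie above it, among them *ABLIM3*, *THRB* and *PTPRM*.

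The ratio was larger in SW480 for 111 genes and in HCT116 for 78, and it differed by at most 0.5 on the log2 scale for 81. For 25 genes it was larger in SW480 by at least 2 on the log2 scale. These included *THRB*, a thyroid hormone receptor (2.95-fold in HCT116 and 194-fold in SW480), *ABLIM3*, an actin-binding LIM protein (5.29-fold and 257-fold), and *PTPRM*, a receptor tyrosine phosphatase (2.02-fold and 90.9-fold). *THRB* and *PTPRM* held 6 and 3 reads over all 4 SW480 WT libraries. In the opposite direction, *WNT7A*, *CCDC9B*, *SLC47A1* and ENSG00000230439 were larger in HCT116 by at least 2. The genes that divided the lines were fewer than those shared, with 16 genes that met the rule in HCT116 and its mirror image in SW480, and 32 the other way round. How many genes met the mirror image in each line was not counted, so no share can be set beside these numbers.

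Ordered by the smaller of their ratios, the leading genes were *C11orf86*, *SYTL5*, *CALB2*, *SNAI2*, *KRT7*, *WNT7A*, *NTN4*, *EFNA5*, *NWD1*, *LINP1*, *GLIS3* and *PLAU*. *C11orf86* (ENSG00000173237, chr11:66742748-66744480, GRCh37) had 0.917, 0, 0.924 and 2.86 normalised read counts in the HCT116 WT libraries and 308, 294, 22.5 and 37.1 in KO. In SW480 it had no read in any WT library and 61.1, 33.9, 96.2 and 94.1 in KO, which was at least 97.9-fold higher when 3 reads over the group stood for 0. The 5 WT reads in HCT116 gave a ratio of 145 with a 95% interval of 61.8 to 448 for counting error alone. *C11orf86* was thus close to silent in WT and the KO clones of HCT116 were far apart from each other.

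*SYTL5* (ENSG00000147041, chrX:37865806-37988072) encodes a synaptotagmin-like effector of vesicle transport. It was at 0.928 to 6.42 in HCT116 WT, at 55.0 and 65.0 in KO 44 and at 439.9 and 694 in KO 47. In SW480 it was at 0.919 to 1.93 in WT, at 144 and 159 in KO 17 and at 408 and 409 in KO 21. Here too the groups were far apart, and the KO clones differed more from each other than their rounds did. The 250 bases that precede the RefSeq start of *SYTL5* (GRCh38.p14, chrX:38006303-38006552, plus strand) are shown because this gene later separated the HT29 clones, and hold 1 copy of the AP-1 motif TGANTCA, in capitals, that ends 230 bases before the start.
SYTL5: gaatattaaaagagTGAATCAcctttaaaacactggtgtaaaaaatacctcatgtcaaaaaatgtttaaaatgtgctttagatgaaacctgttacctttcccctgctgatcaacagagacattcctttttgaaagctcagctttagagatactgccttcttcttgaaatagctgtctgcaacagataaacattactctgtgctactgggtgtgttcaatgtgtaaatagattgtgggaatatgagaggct

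*CALB2* (chr16:71392616-71424339) encodes the calcium-binding protein calretinin. It was at 8.35 to 31.4 in HCT116 WT and at 2604, 1549, 666 and 224 in KO, and at 7.72 to 48.7 in SW480 WT and at 1560, 1592, 530 and 588 in KO. HT29 differed from both lines, since its WT libraries already held 5631 to 8642 and its KO libraries 4096 to 9318. *SNAI2* (chr8:49830157-49834299), encoding the E-cadherin repressor SLUG, was at 5.71 to 22.0 in HCT116 WT and at 137, 81.0, 389 and 327 in KO. In SW480 it was at 29.3 to 84.2 in WT and at 807 to 1243 in KO, and none of the 8 HT29 libraries held a read of it.

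*KRT7* (chr12:52626304-52645970), a keratin of simple epithelia, was at 268 to 714 in HCT116 WT, at 10816 and 11162 in KO 44 and at 1730 and 1684 in KO 47. In SW480 it was at 38.6 to 96.0 in WT and at 1500 to 2628 in KO. *PLAU* (chr10:75668935-75677254), encoding the protease urokinase, was at 464 to 789 in HCT116 WT and at 3892 to 7619 in KO, and at 78.1 to 107 in SW480 WT and at 8980 to 17285 in KO. For *KRT7* and *PLAU* the smallest gap between the genotypes of either line was larger than the spread within any clone. Exons of *KRT7-AS* and *C10orf55* overlap these genes on the other strand, with means of 7.67 and 7.45 over the 24 libraries, and such reads could not be separated because the library kit did not keep strand.

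**Figure D2:**
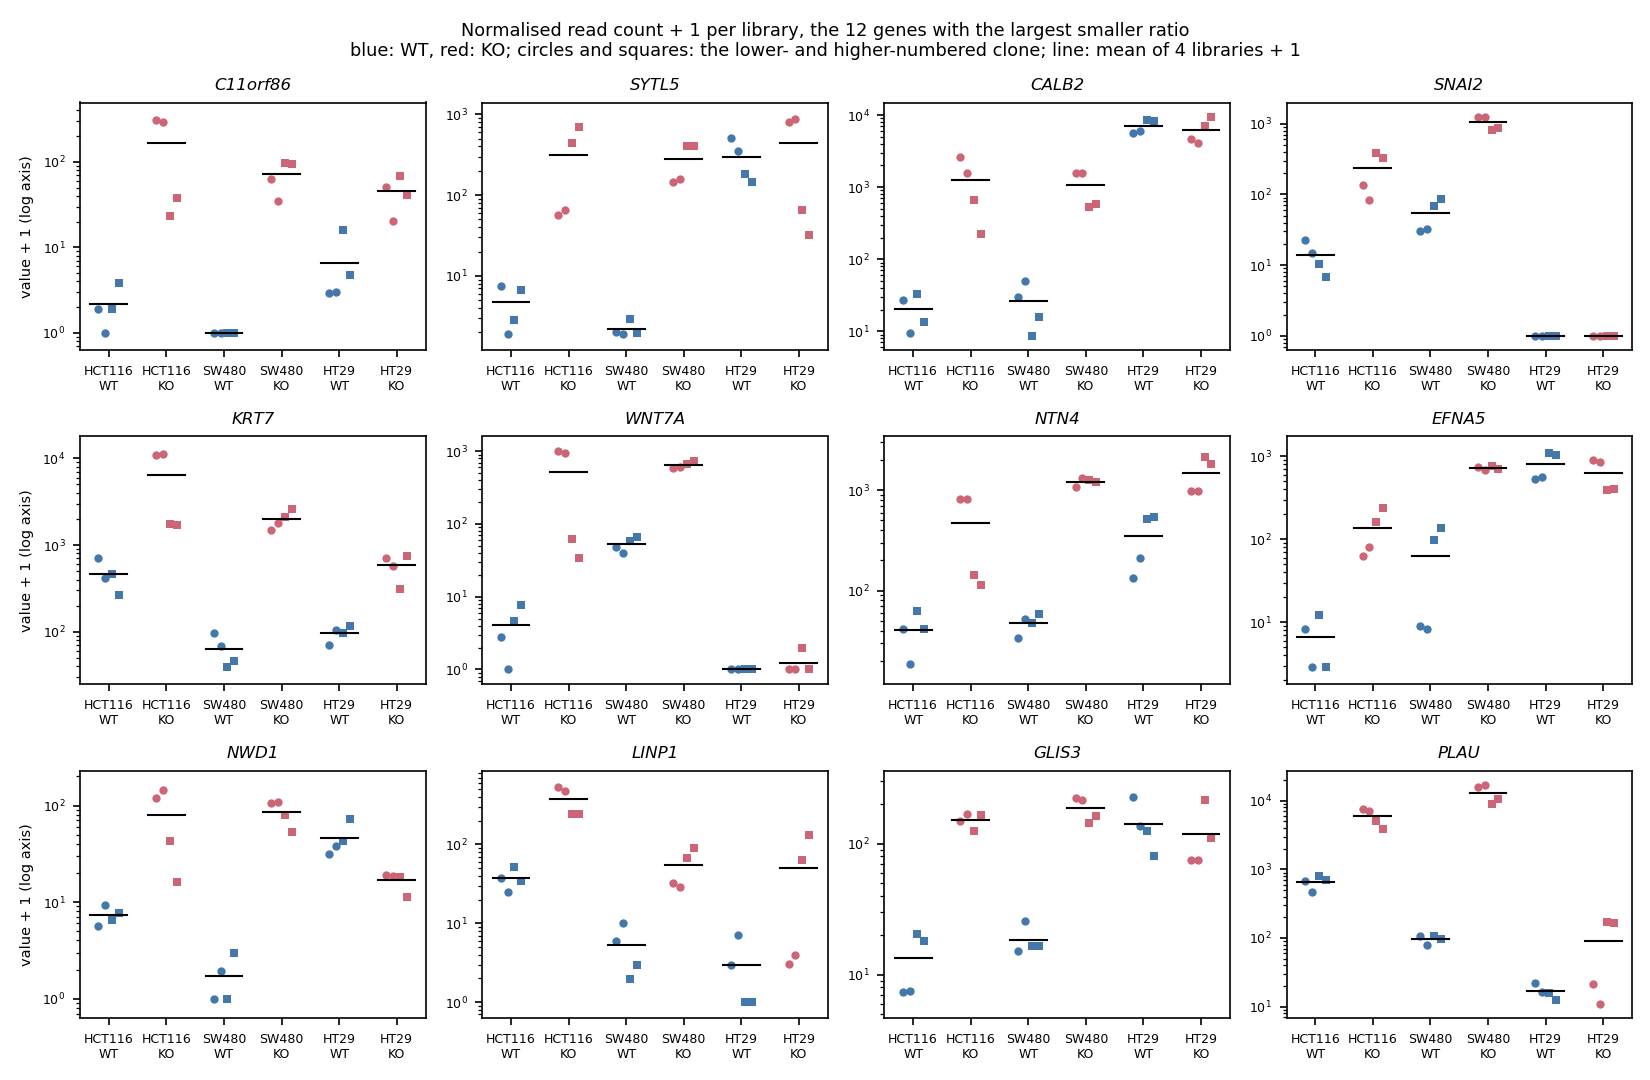
Normalised read count plus 1 (log axis) in every library for the 12 genes with the largest smaller ratio, by line and genotype, with WT in blue and KO in red. Circles and squares are the lower- and higher-numbered clone and lines the mean of 4 libraries plus 1. KO lies above WT in HCT116 and SW480 by the rule, while *CALB2* is at 4096 to 9318 in all HT29 libraries and *SNAI2* has no read there.

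The members were also sorted by 18 gene lists, which were chosen with earlier results of these data known. Of all 11259 genes with a KO mean of at least 50 in both lines, 1.68% were members. The shares within the lists are a description and no test of enrichment. The cytokine and growth factor list contributed 6 of 32 genes with sufficient level, *WNT7A*, *WNT7B*, *CSF1*, *IL15*, *LIF* and *FAM3C*. Ligand genes outside that list, such as *WNT9A*, *EFNA5* and *SEMA7A*, were members too. *WNT7A* (chr3:13857755-13921568) was at 0 to 6.66 in HCT116 WT, at 995 and 959 in KO 44 and at 62.1 and 33.3 in KO 47. In SW480 it was at 39.5 to 65.6 in WT and at 592 to 725 in KO, with no such split between the clones. *WNT7B* had means of 232 in WT and 825 in KO HCT116, and of 1.00 and 91.8 in SW480, where WT held 4 reads in all. *CSF1*, the macrophage growth factor M-CSF, had means of 36.3 and 129.9 in HCT116 WT and KO and of 52.0 and 324 in SW480, and *IL15*, which sustains natural killer and T cells, of 22.5 and 68.3 and of 20.6 and 187.

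Adhesion and matrix genes numbered 11 of 65, namely *NTN4*, *THBS1*, *ITGA3*, *PCDH1*, *LAMB3*, *LAMA3*, *TINAGL1*, *LOXL2*, *CD44*, *SDC4* and *CLDN4*. *NTN4*, a laminin-related protein of basement membranes, was at 17.6 to 61.0 in HCT116 WT, at 819 and 818 in KO 44 and at 143 and 112 in KO 47, and at 32.3 to 57.7 in SW480 WT and at 1080 to 1322 in KO. *LAMA3* and *LAMB3*, which encode chains of laminin 332, were 3.19-fold and 2.99-fold higher in HCT116 and 2.96-fold and 9.35-fold higher in SW480. *LAMB3* had clone means of 1129 in SW480 KO 17 and 9007 in KO 21, so that the size of its difference in SW480 rested mainly on KO 21. *ITGA3*, the α3 subunit of a laminin-binding integrin, had the highest average of the HCT116 and SW480 KO means among the 189 genes and was at 5542 to 8173 in HCT116 WT and 18367 to 34416 in KO, and at 9449 to 12544 in SW480 WT and 35920 to 38859 in KO. *CD44*, a hyaluronan receptor, was at 7637 to 13420 and 24041 to 28467 in HCT116 WT and KO, and at 5982 to 7632 and 14683 to 18962 in SW480.

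The protease list contributed 5 of 45 genes, which were *PLAU*, the aminopeptidases *ERAP1* and *ERAP2* that trim peptides for MHC class I, the cystatin *CST6* and the serine protease gene *PRSS22*. Surface receptors and tetraspanins contributed 9 of 73. The highest of these were *NT5E*, whose product CD73 forms adenosine from AMP, and *GPRC5A*, an orphan receptor. *NT5E* was at 1872 to 2334 in HCT116 WT and 11037 to 11557 in KO, and at 708 to 1150 in SW480 WT and 25186 to 33050 in KO. *GPRC5A* was at 4707 to 8001 and 30094 to 38054 in HCT116 and at 387 to 667 and 4611 to 5378 in SW480. *AXL*, a receptor tyrosine kinase, and *CD274*, which encodes the T cell inhibitory ligand PD-L1, were 2.67-fold and 3.49-fold higher in HCT116 and 3.32-fold and 13.1-fold higher in SW480.

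Within the cytoskeleton list, 10 of 79 genes were members, including the keratin genes *KRT7*, *KRT80* and *KRT15*, *ABLIM3*, *CAVIN3*, *EHD2* and *TMSB4X*. *TMSB4X*, which sequesters monomeric actin, was at 1685 to 2352 in HCT116 WT and 14840 to 20897 in KO, and at 9693 to 11593 in SW480 WT and 33810 to 54409 in KO. Per kilobase of exon and averaged over the KO means of both lines, *TMSB4X* stood highest among all members at 17805, followed by *FTH1* at 12450 and *FOSL1* at 5578. *MPRIP*, a partner of myosin phosphatase, was 2.17-fold and 3.17-fold higher. The calcium-binding list gave 2 of 26 genes, *SYTL5* and *CALB2*.

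Ferritin formed a group of its own. *FTH1*, the heavy chain of the iron store ferritin, was at 7320 to 12374 in HCT116 WT and 27189 to 33840 in KO, and at 4722 to 10109 in SW480 WT and 15266 to 21365 in KO. It was 1 of 10 members among 21 listed genes of iron storage, and the other 9 were processed pseudogenes of *FTH1*. These were 3.27- to 4.05-fold higher in HCT116 and 2.35- to 2.71-fold higher in SW480, against 3.16-fold and 2.49-fold for *FTH1*. Their sequence was 90.9% to 97.5% identical to *FTH1* transcripts, and the 9 together held between 7.68% and 22.2% of the *FTH1* level in the HCT116 and SW480 libraries. Reads of *FTH1* could have been counted for them, so they are not separate evidence. The same holds for *TMSB4XP8*, 99.3% identical to *TMSB4X*, and for *FAM3C2P*, 100% identical to *FAM3C* over its length.

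The list of AP-1 and immediate-early genes contributed 2 of 34, *FOSL1* and *SPRY1*, an inhibitor of receptor tyrosine kinase signalling, and the list of other transcription regulators 6 of 82. Further factors outside these lists were members too, among them *GLIS3*, *THRB* and *NR3C1*. *FOSL1*, an AP-1 subunit, was at 3061 to 4922 in HCT116 WT and 10671 to 17013 in KO, and at 2279 to 3283 in SW480 WT and 5256 to 9123 in KO. *ELF3*, an ETS factor of epithelia, was 5.6-fold and 11.2-fold higher, and *BHLHE41*, a repressor of the circadian clock, 6.0-fold and 10.6-fold. *GLIS3*, a zinc finger factor, was at 6.42 to 19.4 in HCT116 WT and 123 to 167 in KO, and at 14.2 to 24.8 in SW480 WT and 144 to 221 in KO. *FOSL1* and *CD44* were the 2 of 31 listed WNT targets that were members.

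Signalling enzymes and adaptors contributed 15 of 110 genes, led by *DDIT4*, an inhibitor of mTORC1 (8.08-fold in HCT116 and 5.04-fold in SW480), and *INPP4B*, a phosphoinositide phosphatase (7.19-fold and 4.64-fold). Redox and xenobiotic metabolism contributed 4 of 46. Of these, *DHRS3*, which reduces retinaldehyde, was 9.80-fold and 8.25-fold higher, and the aldo-keto reductase genes *AKR1C3* and *AKR1B10* were 5.01-fold and 2.49-fold higher in HCT116 and 16.9-fold and 40.9-fold higher in SW480. Lipid metabolism gave 4 of 49, with *MGLL*, the monoacylglycerol lipase, at 8.42-fold and 3.57-fold. Transporters and channels gave 4 of 68, among them *SLC20A1*, a phosphate importer at 2.07-fold and 2.45-fold, and *SCNN1A*, a subunit of the epithelial sodium channel at 2.72-fold and 10.3-fold. The lysosomal and secretory list gave 4 of 58, hemostasis 4 of 28 (*PLAU*, *THBS1*, *PRKCE* and *CD59*) and intestinal differentiation 1 of 9 (*TSPAN1*). The interferon list gave 3 of 39, *IFIT3*, *CMPK2* and *IFIH1*, and 94 of the 189 genes stood in none of the 18 lists.

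By biotype, 167 genes were protein-coding, 8 were long non-coding RNAs, 11 were processed pseudogenes and 1, *MYH16*, was a unitary pseudogene, while 2 identifiers were not in the annotation used. The median exon length of the coding members was 5716 bases against 5628 for all coding genes that could have met the rule. Some members lay side by side. *PC*, *C11orf86* and *SYT12* followed each other on chromosome 11 with gaps of 16890 and 29768 bases, *KRT80* and *KRT7* were 40505 bases apart, *ERAP1* and *ERAP2* 67886, *ABLIM3* and *AFAP1L1* 11316, and *CST6* and *CATSPER1* 3246.

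The KO clones of a line were not equal. In HCT116, 34 members were at least 2-fold higher in KO 44 than in KO 47 and 11 were at least 2-fold higher in KO 47, whereas in SW480 these numbers were 11 for KO 17 and 12 for KO 21. Such differences were not counted over all genes, so whether the members stand out in this is not known. *WNT7A* had clone means of 977 and 47.7 in KO 44 and KO 47, and *SYTL5* of 60.0 and 567. Genes close to the limits of the rule were *ZBTB18*, *NIBAN1* and *LINC00511*, with a smaller fold of 2.0 each, and just outside it *STX1A*, *LGALS3BP* and *MATN2*, with 2.0, 2.0 and 1.99. For the KO mean, *LPXN*, *SLC47A1* and *LINP1* lay inside at 52.1, 52.7 and 53.3 and *ETV7*, *SATB1* and *ACVR1C* outside at 47.3, 47.2 and 47.2. For the separation of libraries, the lowest KO value plus 1 over the highest WT value plus 1 was 1.02 for *IFIT3*, 1.03 for *LIF* and 1.03 for *FTH1P3* inside, and 0.999 for *TTLL1*, 0.985 for *AGPAT4* and 0.984 for *PRICKLE1* outside.

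How these genes behaved in HT29 was asked next. HT29 WT cells already exceeded both KO means of the other lines in 32 of the 189 genes (16.9%, against 31.4% of all genes that could have met the rule), and were under both WT means in 47 (24.9% against 34.8%). The rule itself set a gap between the WT and KO means of the other lines. This tends to lower both shares for members, so the contrast is not read as a trait of HT29. In HT29, 169 of the 189 genes reached 10 normalised read counts in at least 4 of the 8 libraries and were tested, including *SH3PXD2A-AS1*, which passed only through its KO libraries. Of the 20 that did not (10.6%, against 3.28% of all genes that could have met the rule), 9 had at most 3 reads in each of the 8 libraries, namely *SNAI2*, *WNT7A*, *WNT9A*, *CD22*, *IGFBP3*, *NR3C1*, *MMP17*, *AFAP1L1* and *POPDC3*. *NR3C1*, the glucocorticoid receptor gene, had means of 401 and 1447 in WT and KO HCT116 and of 590.2 and 1717 in SW480. *LINP1*, *KIAA1549L*, *DUSP5-DT*, *TMEM40* and *CAVIN3* reached 10 in only 2 HT29 libraries. For *LINP1*, a long non-coding RNA, these were the libraries of KO 38, at 62.6 and 129.6, with KO 28 at 2.01 and 2.94 and WT at 0 to 6.08. The remaining genes that were not tested were ENSG00000230439, *PLA2G7*, *CORO6*, *ACHE*, *LOXL2* and *CPPED1*.

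In HT29 KO against WT, 16 of the 169 tested genes (9.47%) were called higher and none lower (limma on log2 values plus 1, 2-sided, Benjamini-Hochberg adjusted p under 0.05 and a log2 fold change over 1 in size). Among all 14921 genes tested in HT29, 1.9% were called higher and 0.402% lower. At an unadjusted p under 0.05, 48 members were higher and 4 lower, but the share of all genes at that threshold was not counted. DESeq2 called 28 members higher and 3 lower, with 5.25% of all genes called in either direction, and edgeR 14 and 0, with 1.98%. Among genes at 10 or more in each of the 8 libraries, 13 of 151 members were called, with 1.66% of all genes. The fold change was positive for 127 of the 169 genes (75.1%, against 53.0% of all genes tested), with a median of 0.46 against 0.03 on the log2 scale. The WT clones alone also showed a lean, since in WT 40 against WT 11 it was positive for 108 members (63.9%, against 50.3% of all genes). The medians there were 0.28 and 0.004. Both counts of positive fold changes took pseudogenes as separate genes, and the 10 ferritin members were positive in both comparisons. All 4 KO libraries lay above all 4 WT libraries in 36 of the 169 members, where 8.31% of all genes did so, and below in 3, where 4.71% did. This test took the 4 libraries of a genotype as replicates although they came from 2 clones. With the clone as a random effect 8 members were called, with 0.811% of all genes. With the reads of each clone summed limma called 0 of all 14921 genes and so 0 members. At an unadjusted p under 0.05, 29 members were higher and 1 lower in that fit, again without a count over all genes. Without KO 28A 8 members were called (1.14% of all genes), without WT 11B 9 (1.26%) and without WT 40A 9 (1.01%). Without KO 38A, WT 11A or WT 40B 10 were called (1.39%, 0.972% and 1.16%).

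*SH3PXD2A-AS1* (chr10:105505724-105515181), a long non-coding RNA, was at 0, 0, 0.988 and 2.51 in the HT29 WT libraries and at 99.6, 98.8, 55.0 and 29.8 in KO. Its fitted log2 fold change was 5.31, and since it entered the test only through its KO libraries it had to differ and no p is given. It is 1 of the 16 called genes. *ARL14* (chr3:160394948-160396236), an ADP-ribosylation factor-like GTPase, was at 191, 165, 176 and 100.1 in WT and 1504, 1215, 1744 and 2319 in KO, with a log2 fold change of 3.42 (SE 0.27, adjusted p = 0.000409, limma). The clones of each genotype stayed close for *ARL14*, and it was also far higher in KO in SW480, with 1 read over the 4 WT libraries and 27.8 to 131 in KO. *C11orf86* was at 1.92, 2.03, 14.8 and 3.76 in HT29 WT and 50.3, 19.6, 67.3 and 40.2 in KO (log2 fold change 3.03, SE 0.63, limma). Of its WT libraries, only that at 14.8 reached the level needed for testing. *C11orf86* thus entered the test mainly through its KO libraries, and no p is given for it either. Its call is among the 16 and was kept in 7 of 22 alternatives.

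*SDCBP2* (chr20:1290553-1309783) encodes the PDZ domain protein syntenin-2. It was at 115, 147, 175 and 197 in HT29 WT and 1546, 1028, 1031 and 1255 in KO (log2 fold change 2.94, SE 0.23, adjusted p = 0.000409, limma). Its difference was larger in HT29 than the 4.49-fold and 2.07-fold seen in HCT116 and SW480, where HCT116 KO 44 stood at 37.3 and 51.8 beside WT at 15.2 to 34.9, and the difference between the lines was not tested. *SDCBP2-AS1* overlaps it on the other strand with a mean of 52.9. The 250 bases before its RefSeq start (GRCh38.p14, chr20:1329140-1329389, minus strand) are shown as an example of a member called in HT29 with an AP-1 motif, TGANTCA, in capitals, that ends 80 bases before the start.
SDCBP2: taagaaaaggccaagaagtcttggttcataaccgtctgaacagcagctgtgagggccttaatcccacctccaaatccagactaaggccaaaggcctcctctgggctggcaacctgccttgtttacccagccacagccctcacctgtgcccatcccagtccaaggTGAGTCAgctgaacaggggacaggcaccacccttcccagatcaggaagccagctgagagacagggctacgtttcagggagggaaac

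*KRT7* was at 70.1, 102, 96.8 and 114 in HT29 WT and 715, 571, 306 and 756 in KO (log2 fold change 2.54, SE 0.32, adjusted p = 0.00432, limma). *CSF1* was at 21.1, 9.12, 18.8 and 17.5 in WT and 65.4, 61.6, 61.7 and 59.6 in KO (log2 fold change 1.90, SE 0.32, adjusted p = 0.0182, limma). No KO library overlapped WT for either gene, and the KO libraries of *KRT7* were spread more widely than those of *CSF1*. Smaller changes were found for *ARSA*, the lysosomal arylsulfatase A (1.42, adjusted p = 0.0371), *TSPAN1*, a tetraspanin (1.33, adjusted p = 0.00424), *PRSS22* (1.24, adjusted p = 0.0168), *FRK*, a kinase of the SRC family (1.20, adjusted p = 0.0326), ENSG00000170647 (1.19, adjusted p = 0.0386, kept in 7 of 23 alternatives) and *DHRS3* (1.07, adjusted p = 0.0337). *TSPAN1* was at 4632 to 5534 in HT29 WT and 9738 to 15283 in KO, well over its 166 to 298 in SW480 KO. The other 4, named after their values were seen, were *ATOSB* (1.88), the long non-coding RNA ENSG00000260401 (1.78), *KRT15* (1.63) and the phospholipase gene *LIPH* (1.63).

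**Figure D3:**
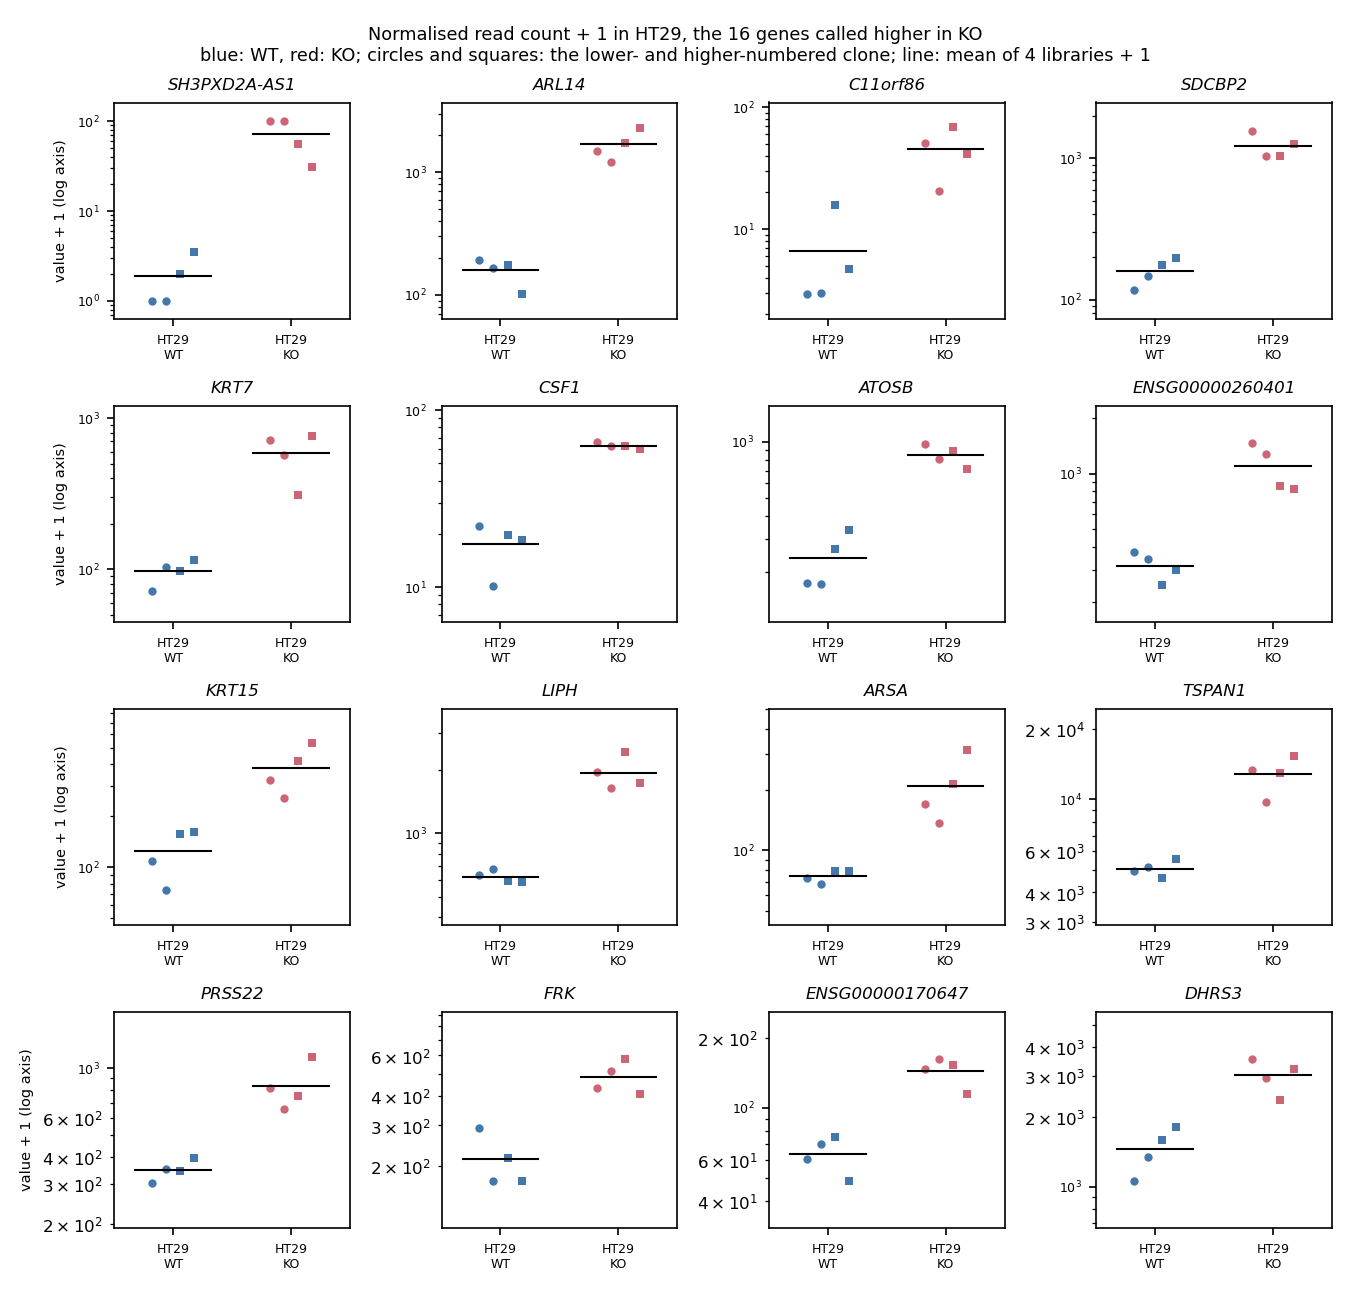
Normalised read count plus 1 (log axis) in the 8 HT29 libraries for the 16 genes called higher in KO, with WT in blue and KO in red, circles and squares for the lower- and higher-numbered clone and lines for the mean of 4 libraries plus 1. All KO libraries lie above all WT libraries in each of the 16 panels, and *C11orf86* WT 40A, at 14.8, comes closest to its KO group at 19.6.

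Of the members with the highest KO levels or the largest ratios elsewhere, several were not called in HT29. *NTN4* was at 133, 212, 512 and 545 in WT and 985, 982, 2144 and 1823 in KO (log2 fold change 2.22, SE 0.49, adjusted p = 0.0525, limma), so that no library overlapped but the WT clones were apart. *TMSB4X* had a log2 fold change of 1.48 (adjusted p = 0.123), *ITGA3* of 0.45 (adjusted p = 0.525), *GPRC5A* of 0.01 (adjusted p = 0.981), *SLC20A1* of 0.02 (adjusted p = 0.968) and *MPRIP* of −0.15 (adjusted p = 0.811). *CD44* was at 14981, 12997, 6628 and 6709 in HT29 WT and 5108, 4649, 9899 and 9585 in KO, where the genotypes overlapped and WT 11 stood above WT 40. *FOSL1* had a log2 fold change of −0.49 (adjusted p = 0.439, limma) and *CALB2* of −0.24 (adjusted p = 0.697). The lowest p-values for a lower level were those of *NWD1* (−1.42, adjusted p = 0.0804), *PRSS12* (−0.60, adjusted p = 0.136), *THSD4* (−3.53, adjusted p = 0.143) and *AXL* (−1.87, adjusted p = 0.19), and none passed the test.

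In the gene lists, members called in HT29 KO against WT numbered 2 of 9 tested in the cytoskeleton list, 1 of 5 proteases, 1 of 5 cytokines and growth factors, 1 of 9 receptors and tetraspanins, 1 of 4 each in lipid and redox metabolism, 1 of 15 signalling genes and the single intestinal differentiation gene *TSPAN1*. None of 10 adhesion, 10 ferritin, 2 AP-1, 5 other transcription factor, 3 interferon, 2 calcium-binding, 4 transporter, 3 lysosomal and secretory, 2 WNT target and 4 hemostasis genes was called. Of all 169 members tested, 9.47% were called, and counts this small do not set any list apart from that share. Of all 14921 genes tested in HT29, 1.9% were called higher and 0.402% lower. Over all listed genes rather than members, 11 of 37 intestinal differentiation genes were called higher and 0 lower in HT29 KO (median log2 fold change 1.81), 6 of 55 interferon genes higher and 0 lower (1.28), 11 of 67 protease genes higher and 2 lower (0.53), and 2 of 36 WNT targets higher and 6 lower (−0.49). Of the cytoskeleton list 8 of 91 genes were higher and 1 lower, of the adhesion list 10 of 86 and 1, of the cytokine list 4 of 51 and 3, of the receptor list 8 of 88 and 1, and of the redox list 8 of 81 and 0. The signalling list had 7 of 129 higher and 0 lower, the transporter list 6 of 96 and 3, the lysosomal list 5 of 64 and 1, other transcription factors 4 of 96 and 2, calcium-binding genes 3 of 37 and 0, AP-1 genes 2 of 38 and 0, lipid metabolism 2 of 66 and 0, hemostasis 1 of 34 and 0, and iron storage 0 of 29 and 0.

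The KO clones of HT29 were then compared with WT separately, in a fit with a mean for each clone whose error came from rounds A and B. In KO 28 against both WT clones, 46 of the 169 members were called higher and 3 lower, where 6.09% and 2.45% of all genes were. In KO 38, 52 were called higher and 13 lower, where 8.91% and 4.8% of all genes were. These comparisons share the WT libraries. The genes called higher in KO 38 included 7 pseudogenes of *FTH1*, although *FTH1* itself was not called. *TMSB4X* and *TMSB4XP8* were both counted in each KO clone. Such pseudogenes are not separate evidence. The WT clones themselves differed, with 22 members called higher and 14 lower in WT 40 than in WT 11, against 3.24% and 4.34% of all genes. In a direct comparison of the KO clones, 23 members were called higher and 31 lower in KO 38 than in KO 28, against 5.89% and 6.66% of all genes. Without KO 28A or KO 28B the calls in KO 28, higher and lower together, went from 49 to 18 and 22, and those between the KO clones from 54 to 27 and 31. Without 1 of the WT libraries, 14 to 18 members were called between the WT clones in place of 36. The share of all genes called fell in these fits too, so the falls are not read as particular to the members. Over all genes tested in HT29, the median absolute log2 difference between rounds was 0.55 in KO 38 and 0.17 to 0.26 in the other 3 clones.

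**Figure D4:**
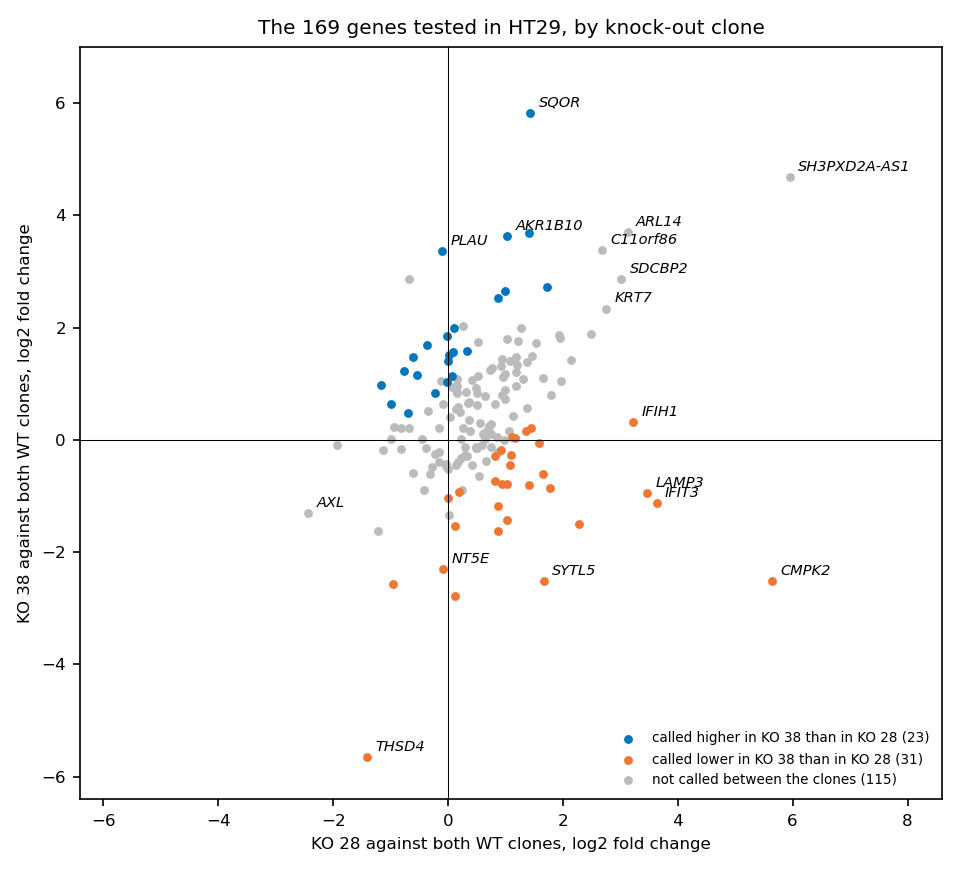
Log2 fold changes of the 169 tested genes in KO 28 (horizontal axis) and KO 38 (vertical axis) against both WT clones, which the axes share. Colours give the direct comparison of the KO clones, with 23 genes called higher in KO 38, 31 called lower and the rest in grey, and *CMPK2*, *IFIT3* and *SYTL5* lie to the lower right.

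The genes with opposite calls in the HT29 KO clones were *CMPK2*, *IFIT3* and *SYTL5*. *CMPK2* (chr2:6980701-7006766), an interferon-inducible nucleotide kinase of mitochondria, was at 19.2, 14.2, 35.6 and 30.1 in the WT libraries, at 1490 and 987 in KO 28 and at 1.90 and 5.19 in KO 38. Its log2 fold change against WT was 5.64 in KO 28 (SE 0.38, adjusted p = 0.000137, limma) and −2.52 in KO 38 (SE 0.38, adjusted p = 0.0036). *IFIT3* (chr10:91087064-91137230), an interferon-induced antiviral protein, was at 121, 127, 262 and 218 in WT, 2762 and 1661 in KO 28 and 104 and 58.3 in KO 38, and its log2 fold change was 3.63 in KO 28 (adjusted p = 0.000279, limma) and −1.13 in KO 38 (adjusted p = 0.0327). The genotype test, which joins the KO clones, gave adjusted p = 0.715 for *CMPK2* and adjusted p = 0.619 for *IFIT3* (limma).

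*IFIH1* (chr2:163123584-163175194), encoding the double-stranded RNA sensor MDA5, was at 202 to 248 in HT29 WT, 2377 and 1782 in KO 28 and 270.3 and 279 in KO 38. It was called in KO 28 (log2 fold change 3.22, adjusted p = 5.51e-05, limma) and not in KO 38 (0.32, adjusted p = 0.235). *CD274* was at 34.5 to 93.9 in WT, 97.6 and 113 in KO 28 and 14.2 and 22.0 in KO 38, and was called lower in KO 38 (−1.63, adjusted p = 0.00555, limma). In HCT116 and SW480 both KO clones exceeded WT for these genes by the rule, with *IFIT3* at 48.2 to 182 and 893 to 1047 in KO and *IFIH1* at 558 to 726 and 849 to 1333. *RSAD2*, also interferon-inducible, overlaps *CMPK2* on the other strand with a mean of 74.3, and *LIPA* overlaps *IFIT3* with a mean of 1666.

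The 250 bases before the RefSeq starts of *IFIT3* (GRCh38.p14, chr10:89327747-89327996, plus strand), *IFIH1* (chr2:162318685-162318934, minus strand) and *CD274* (chr9:5450292-5450541, plus strand) are shown because these genes differed between the HT29 KO clones and their windows hold the interferon-stimulated response element on either strand, in capitals. The letters searched were GAAA, any 2 bases and GAAA again. The window of *CMPK2* held no such match.
IFIT3: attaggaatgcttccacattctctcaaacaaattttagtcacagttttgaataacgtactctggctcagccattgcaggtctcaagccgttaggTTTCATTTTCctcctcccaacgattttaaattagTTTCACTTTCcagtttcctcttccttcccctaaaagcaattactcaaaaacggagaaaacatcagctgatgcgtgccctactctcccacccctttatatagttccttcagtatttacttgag
IFIH1: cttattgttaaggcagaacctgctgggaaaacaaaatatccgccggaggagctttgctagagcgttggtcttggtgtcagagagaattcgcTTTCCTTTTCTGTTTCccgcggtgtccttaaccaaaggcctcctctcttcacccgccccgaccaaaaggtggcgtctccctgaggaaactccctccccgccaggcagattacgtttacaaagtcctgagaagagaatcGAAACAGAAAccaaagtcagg
CD274: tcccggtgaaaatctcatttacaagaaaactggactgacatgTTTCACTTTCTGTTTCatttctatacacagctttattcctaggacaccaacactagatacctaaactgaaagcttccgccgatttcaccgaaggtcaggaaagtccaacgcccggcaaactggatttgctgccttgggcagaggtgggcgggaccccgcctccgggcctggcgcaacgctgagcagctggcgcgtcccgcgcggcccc

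*SYTL5* was at 501, 349.7, 184 and 143 in HT29 WT, 792 and 873 in KO 28 and 63.6 and 31.1 in KO 38, and its log2 fold change was 1.67 in KO 28 (adjusted p = 0.0112, limma) and −2.52 in KO 38 (adjusted p = 0.00128). Other members also stood apart between the clones. *PLAU* was at 11.3 to 21.1 in WT and 20.1 and 9.78 in KO 28, but at 169 and 162 in KO 38 (3.36 in KO 38, adjusted p = 0.000733, limma). *CD59*, an inhibitor of complement, was at 6801 to 8470 in WT and KO 28 and at 23266 and 34370 in KO 38 (1.85, adjusted p = 0.000585, limma). *NT5E* was at 1960 to 4408 in WT and 2968 and 2645 in KO 28, but at 625 and 582 in KO 38 (−2.30, adjusted p = 5e-05, limma), opposite in direction to HCT116 and SW480.

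**Figure D5:**
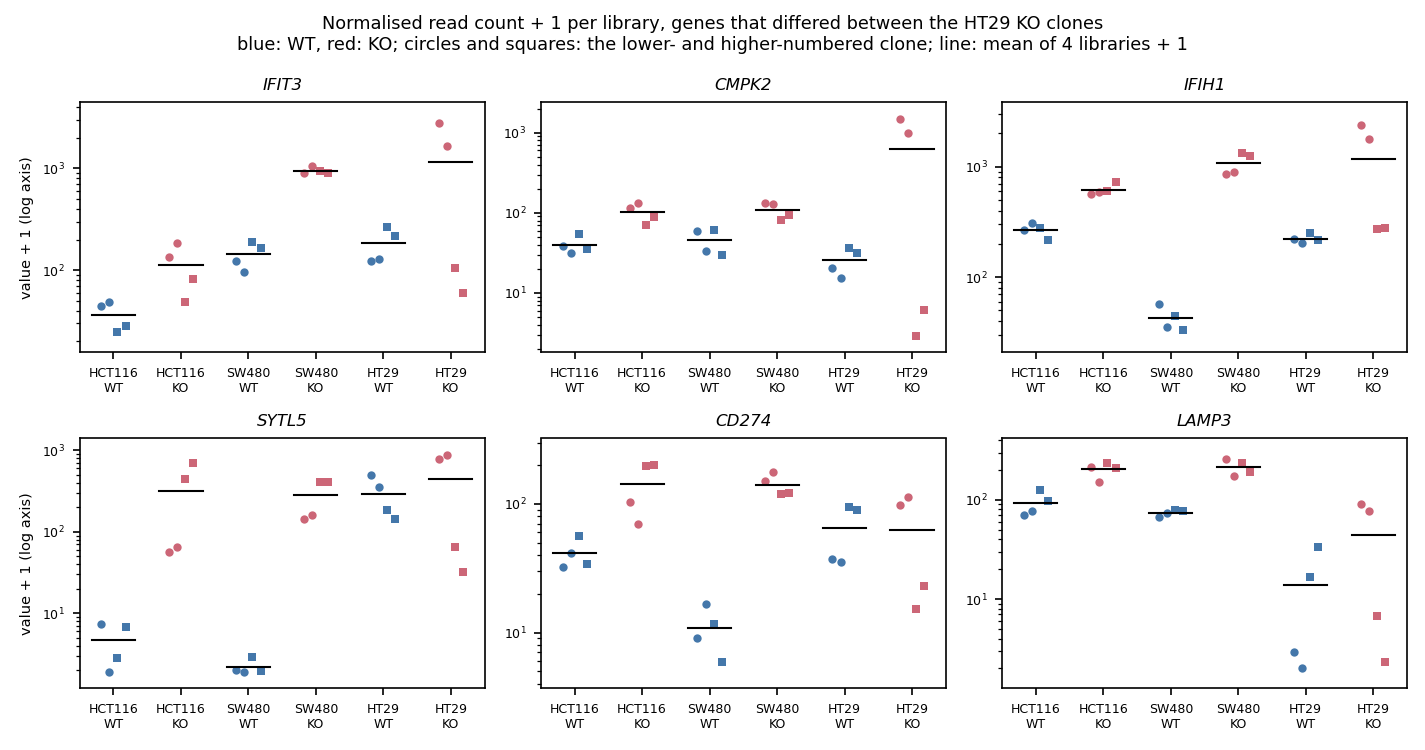
Normalised read count plus 1 (log axis) in every library for 6 genes that differed between the HT29 KO clones, with WT in blue and KO in red, circles and squares for the lower- and higher-numbered clone and lines for the mean of 4 libraries plus 1. In HT29 the KO 28 circles lie far above the KO 38 squares, as for *CMPK2* at 1490 and 987 against 1.90 and 5.19.

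*SQOR*, a mitochondrial sulfide oxidase, depended on the WT clone as well. It was at 181 and 201 in WT 11, 0 and 1.25 in WT 40, 58.3 and 34.2 in KO 28 and 556 and 1671 in KO 38, so that neither genotype had a common level. *LAMP3*, a membrane protein of late endosomes and lysosomes, was at 1.92 and 1.01 in WT 11, 15.8 and 32.6 in WT 40, 90.5 and 76.3 in KO 28 and 5.69 and 1.30 in KO 38. *THSD4* was at 637 and 489 in WT 11, 1501 and 1799 in WT 40, 369 and 349 in KO 28 and 18 and 18.2 in KO 38, and was called lower in both KO clones (−1.41, adjusted p = 0.00239, and −5.65, adjusted p = 3.46e-06, limma). *AXL* was called lower in KO 28 (−2.43, adjusted p = 0.0103, limma), where it was at 12.1 and 13.7 beside 31.4 to 218 in WT. Of the ferritin genes, *FTH1* was at 36574 and 36054 in KO 38 and at 16741 to 26584 in the other HT29 libraries (0.83 in KO 38, adjusted p = 0.029, limma, under the fold required), and 7 of its 9 pseudogenes were called in KO 38 and none in KO 28.

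Motifs were counted in the 250 bases before the RefSeq start of the 131 members that had an entry. The TCF/LEF motif, taken as CAAAG preceded by 2 bases that are each A or T, on either strand, stood in 14 windows (10.7%), against 12.1% of all 27305 promoters and 6.88% of those of genes that could have met the rule. The AP-1 motif TGANTCA stood in 11 (8.4%, against 6.60% and 3.57%), the TEAD motif CATTCC in 12 (9.16%, against 11.9% and 9.07%), the E-box CACCTG in 19 (14.5%, against 17.5% and 15.2%) and the interferon-stimulated response element in 4 (3.05%, against 3.07% and 2.14%). The fourth window with this element was that of *MIR222HG*. The median GC content was 64.4% in members, 58.0% in all promoters and 65.6% in genes that could have met the rule. These counts describe the letters in the windows and no binding was measured.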

How the data were processed

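The deposited values are a signal that the authors made by dividing the read count of each gene by 1 size factor per library. Per the submitters' processing notes, reads were aligned to GRCh37 with STAR 2.7.5b, counted with featureCounts 2.0.1 and scaled with DESeq2 (wrapper version 2.11.40.6). Libraries were made with a kit that does not keep strand. All values in the 24 libraries were whole multiples of 1 read within 0.01 read, so reads were recovered. They ranged from 22297049 to 29068378 per library, and intervals cover counting error only.

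The members and lists were chosen with earlier results of these data known. HT29 was tested with limma 3.58.1 (trend and robust) in R 4.3.3 on log2(value + 1) for genes at 10 or more in at least 4 of 8 libraries. The pseudocount of 1 understates changes of low genes. A gene was called at an adjusted p under 0.05 and an absolute log2 fold change over 1. A second limma fit gave each clone a mean. The labels give the rounds A and B as replicates, so p-values measure the spread between rounds and clones. Whether round letters pair libraries was checked with the correlation of A minus B between HT29 clones, which ran from −0.31 to 0.42 over 6 pairs, and no pairing was assumed. edgeR 4.0.16 and DESeq2 1.42.0 on the recovered reads, other filters, pseudocounts and left-out libraries were alternatives. The test was checked on simulated data.

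Named genes were the 12 members with the largest smaller ratio, the 8 with the highest KO means, the 6 highest and 6 lowest HT29 fold changes among called members, up to 4 members per list, the 3 genes on each side of a limit, and members with opposite calls in the HT29 KO clones. Other names were chosen after their values were seen. Gene models were GENCODE v44 lifted to GRCh37, which held 55604 of the 58051 identifiers. Promoters came from RefSeq (GRCh38.p14) by symbol, for 131 of 189 members. For 119 of these the bases right after the window occurred in an annotated transcript of the gene, at any position. Sequences of pseudogenes and parents were aligned with edlib 1.3.9.post1.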

Additional observations from a re-analysis of the deposited data

Results flagged for a closer look

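In 175 groups of 4 libraries, from 32 named genes, the highest or lowest library was compared with the rest, and in 4 groups its gap to the nearest library, as a share of the group's range, exceeded Dixon's 95% critical value. Chance alone gives about 1 in 20 groups. *C11orf86* in HT29 WT had a gap of 0.858 of the range, with 40A at 14.8 normalised read counts and the others at 1.92 to 3.76. *CSF1* in SW480 WT had a gap of 0.948, with 4B at 35.8 and the others at 56.8 to 57.9. *GLIS3* in SW480 WT had a gap of 0.858, with 4B at 24.8 and the others at 14.2 to 15.7, and *NWD1* in HT29 KO had a gap of 0.867, with 38B at 10.4 and the others at 17.1 to 18.1.

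For *NWD1*, *THSD4* and *PRSS12*, every HT29 KO library lay under every HT29 WT library, while the rule placed every KO library above WT in HCT116 and SW480. The log2 ratios of the HT29 means plus 1 were −1.46 for *NWD1*, −2.55 for *THSD4* and −0.61 for *PRSS12*. The difference between the lines was not tested. Exons of *SNHG8* overlap *PRSS12* on the other strand with a mean of 937.

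*CMPK2*, *IFIT3* and *SYTL5* were called higher in HT29 KO 28 and lower in KO 38 than in WT. In the direct comparison of KO 38 with KO 28, the log2 fold changes were −8.16 for *CMPK2* (adjusted p = 4.28e-05, limma), −4.76 for *IFIT3* (adjusted p = 0.000141) and −4.19 for *SYTL5* (adjusted p = 0.000297).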

How the results depend on the processing

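The 189 genes became 378 with a fold of at least 1.5 and 72 with a fold of at least 3, and 182 to 213 when 1 library was left out. Library totals in place of size factors left 173 and TMM scaling 180 of them. In HT29 KO against WT, the 16 called members, beside 2.3% of all genes, became 31 with DESeq2 (5.25%) and 8 with the clone as a random effect (0.811%). They became 0 with the reads of each clone summed, and 8 to 15 without 1 library (0.972% to 2.22%). Without KO clone 28 they were 27 (4.34% of all genes), of which 21 were higher and 6 lower, and 11 of the 16 kept their call. They were 8 without KO 28A, 9 without WT 11B or WT 40A, and 10 without KO 38A, WT 11A or WT 40B. With the round as a replicate block, 11 of the 16 were called, and the samples share only a letter there. *ARL14*, *SDCBP2*, *KRT7*, *ATOSB*, *LIPH* and *TSPAN1* kept their call in 22 of 23 settings, and *C11orf86* and ENSG00000170647 in 7. The setting that *ARL14* and the genes named with it lost was that with the reads of each clone summed. The setting with adjusted p under 0.05 alone could not lose a call. Most of the others still took libraries of the same clone as replicates. No direction was reversed for the 16 genes. Called members in KO 28 numbered 18 to 54 without 1 library (main value 49), with 18 without KO 28A and 22 without KO 28B. In KO 38 they numbered 44 to 73 (main value 65), and without KO 38A 32.6% of all genes were called. Between the KO clones there were 27 to 72 (main value 54), with 27 without KO 28A and 31 without KO 28B, and between the WT clones 14 to 48 (main value 36), with 17 without WT 11A, 16 without WT 11B, 18 without WT 40A and 14 without WT 40B. A clone left with 1 library was taken to vary like the others. The share of all genes called moved in these fits as well, so the shifts are not read as particular to the members. The cause of these shifts was not tested. Genes with a few reads in WT have folds that depth limits.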
